A study of Homo sapiens with 6 samples.

Results

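PDE4A and 9 related genes encode enzymes that break down cyclic AMP (cAMP), cyclic GMP (cGMP) or both. The 10 genes were PDE4A, PDE4B, PDE4C, PDE4D, PDE3A, PDE3B, PDE5A, PDE7A, PDE8A and PDE10A, taken by symbol from a table of 62700 genes, and all 10 were found. PDE4A was picked because it was among the largest increases in the very comparison described here, and the others were picked as its relatives with that comparison known, so their values are given as a description without p-values. Counts were high enough for 9 of the 10 to enter the model, and PDE4C was left out by the filter on low counts. The RNA came from PC3, a long-established cell line from a human prostate cancer. One group of 3 libraries carried a short hairpin RNA (shRNA) directed at TTC3, the gene of a ubiquitin ligase, and the other group of 3 carried a control shRNA and is labelled wild type. All cells were grown in F-12K medium with serum, and total RNA was depleted of ribosomal RNA. The labels do not say whether libraries came from separate cultures or clones, or how many hairpins were used, so p-values reflect only how far these libraries vary, and that variation could be technical.

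Receptors coupled to the G protein Gs switch on adenylyl cyclases, which make cAMP, and guanylyl cyclases make cGMP. Cyclic AMP acts through protein kinase A, EPAC exchange factors, Popeye-domain proteins and cyclic nucleotide-gated channels, and protein kinase A phosphorylates the transcription factor CREB. Phosphodiesterases end the signal by hydrolysing the cyclic nucleotide. The PDE4 enzymes are specific for cAMP and are the targets of rolipram and roflumilast, and A-kinase anchoring proteins and other scaffolds hold them at particular sites in the cell.

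Start-site regions are shown for the genes with the largest increase and the largest decrease among the 10, and for PDE10A as a second gene that was lower. They are RefSeq windows of 300 bases (250 before the start site and 50 after it, GRCh38.p14), each the window closest to the start of the gene's leading transcript in these libraries. Matched by symbol, 8 of the 10 genes had a window in the RefSeq table, and in 5 of them a window lay within 150 bases of that start. Capitals mark matches to the GC box (GGGCGG, either strand), a motif known to bind SP-family factors. The PDE4A window is chr19:10420288-10420587 on the plus strand, the PDE4B window chr1:66331858-66332157 on the plus strand and the PDE10A window chr6:165663192-165663491 on the minus strand.
PDE4A: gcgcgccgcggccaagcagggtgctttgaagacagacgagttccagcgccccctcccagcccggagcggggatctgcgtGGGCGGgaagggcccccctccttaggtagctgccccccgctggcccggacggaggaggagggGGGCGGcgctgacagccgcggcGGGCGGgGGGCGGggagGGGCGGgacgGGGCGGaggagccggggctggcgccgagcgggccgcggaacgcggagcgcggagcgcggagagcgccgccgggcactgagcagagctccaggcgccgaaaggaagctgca
PDE4B: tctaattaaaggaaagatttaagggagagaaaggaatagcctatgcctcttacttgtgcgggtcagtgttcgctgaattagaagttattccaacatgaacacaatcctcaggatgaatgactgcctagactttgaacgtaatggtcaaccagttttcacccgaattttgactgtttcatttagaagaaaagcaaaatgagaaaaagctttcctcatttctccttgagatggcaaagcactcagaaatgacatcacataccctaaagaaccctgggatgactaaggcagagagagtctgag
PDE10A: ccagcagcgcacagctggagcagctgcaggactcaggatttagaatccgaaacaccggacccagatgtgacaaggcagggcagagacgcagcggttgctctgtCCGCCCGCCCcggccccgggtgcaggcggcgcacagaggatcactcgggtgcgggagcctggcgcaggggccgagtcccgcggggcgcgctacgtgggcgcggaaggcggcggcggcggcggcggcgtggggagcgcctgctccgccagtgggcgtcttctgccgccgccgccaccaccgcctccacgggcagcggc

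The 3 windows differed in base composition. The PDE4A window was 78.0% G or C with 40 CpG dinucleotides and 6 GC boxes, the first of them 171 bases and the last 60 bases before the start site. The PDE4B window was 40.3% G or C, with 4 CpG and no GC box. PDE10A stood nearer to PDE4A, at 74.3% G or C with 38 CpG and a pair of overlapping GC boxes. A GC box was present in 44.9% of all 34943 RefSeq windows of this length. The cAMP response element (CRE, TGACGTCA, found in 1.84% of all windows), its core TGACG (24.5%) and the AP-1 motif TGANTCA (7.72%) were searched on both strands and matched none of these 3 windows. A core motif of NF-kappaB, present in 58.6% of all windows, matched the PDE4A window in 2 overlapping places and the PDE10A window in 1. These matches describe letters in a window and not sites in use, and a missing match says only that the letters are not there.

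TTC3 itself fell to 28.6% of control in the TTC3 shRNA libraries (log2 fold change -1.81 ± 0.10 (SE), adjusted p = 5.65e-05, edgeR quasi-likelihood test with Benjamini-Hochberg adjustment, used throughout). Total counts were 144655100 to 155526861 per TTC3 shRNA library and 143246356 to 154832203 per control library. Of 24325 genes tested, 33.6% passed an adjusted p of 0.05, with 15.7% higher and 17.8% lower in TTC3 shRNA cells, and the median log2 fold change over all of them was -0.02. The 5 epithelial markers looked at (KRT8, KRT18, KRT19, EPCAM and CDH1) summed to 655 to 1011 CPM (counts per 1e6 scaled counts of the library) in TTC3 shRNA libraries and 639 to 680 CPM in controls. Their least abundant member, the adhesion molecule CDH1, was at 0.599 CPM in TTC3 shRNA cells and 1.97 CPM in controls. KLK3 and KLK2, prostate genes known to be silent in PC3, had no counts in any library. Of 10 markers of immune, endothelial and stromal cells, CD3E and CDH5 were among those at 0 in all 6 libraries, and the list summed to 79.3 to 124 CPM in TTC3 shRNA libraries and 36.2 to 41.0 CPM in controls, mostly COL1A1 and CD68. The part of these differences in the results below was not tested.

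PDE4A was the only one of the 9 chosen phosphodiesterases tested that was higher in TTC3 shRNA cells, and PDE4B and PDE4D, its close relatives, were lower. Among the other genes of the phosphodiesterase families, given further below, PDE6D also rose. PDE4A (ENSG00000065989.16, GRCh38 chr19:10416773-10469631) had 16.3, 16.1 and 17.5 CPM in TTC3 shRNA libraries 1 to 3, against 0.992, 1.86 and 1.59 CPM in control libraries 1 to 3. Every TTC3 shRNA library was thus far above every control, and the groups did not overlap. The means were 16.6 ± 0.800 CPM in TTC3 shRNA cells and 1.48 ± 0.444 CPM in control cells (SD, n = 3 each, as for all means below), a log2 fold change of 3.49 ± 0.23 (SE), or 11.2-fold. In raw estimates these levels rest on 2455, 2200 and 2519 counts in TTC3 shRNA libraries and 159, 300 and 238 in controls, so the control side carries most of the counting error. By size of the increase PDE4A ranked 28 among the 24325 genes. In bulk RNA, a change in the share of cells with the transcript and a change in RNA per cell cannot be told apart.

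PDE4B, the form best known from immune cells and brain, moved the other way. PDE4B (ENSG00000184588.18, chr1:65792514-66374579) had 1.69, 1.39 and 1.15 CPM in TTC3 shRNA libraries, against 11.0, 11.3 and 9.74 CPM in controls. The highest TTC3 shRNA library stayed well below the lowest control. Means were 1.41 ± 0.269 CPM in TTC3 shRNA cells and 10.7 ± 0.813 CPM in controls, so that TTC3 shRNA cells held 13.2% of the control level (log2 fold change -2.92 ± 0.17).

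PDE4D, a widely expressed form that scaffolds bring to cell-surface receptors, was also lower, at 49.2% of control. Its levels (ENSG00000113448.21, chr5:58969038-60522120) were 10.1, 8.54 and 7.43 CPM in TTC3 shRNA libraries, against 18.2, 17.9 and 16.9 CPM in controls. The 3 TTC3 shRNA libraries lay below all controls, with means of 8.68 ± 1.32 CPM in TTC3 shRNA cells and 17.7 ± 0.707 CPM in controls and a log2 fold change of -1.02 ± 0.12. PDE4C (chr19:18208652-18248200) had no counts in the 3 TTC3 shRNA libraries and 12, 0 and 0 in controls. A floor of 3 counts over a group allows a PDE4C level of up to 0.00695 CPM in TTC3 shRNA cells, from counting error alone, and no fold is given.

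**Figure D1:**
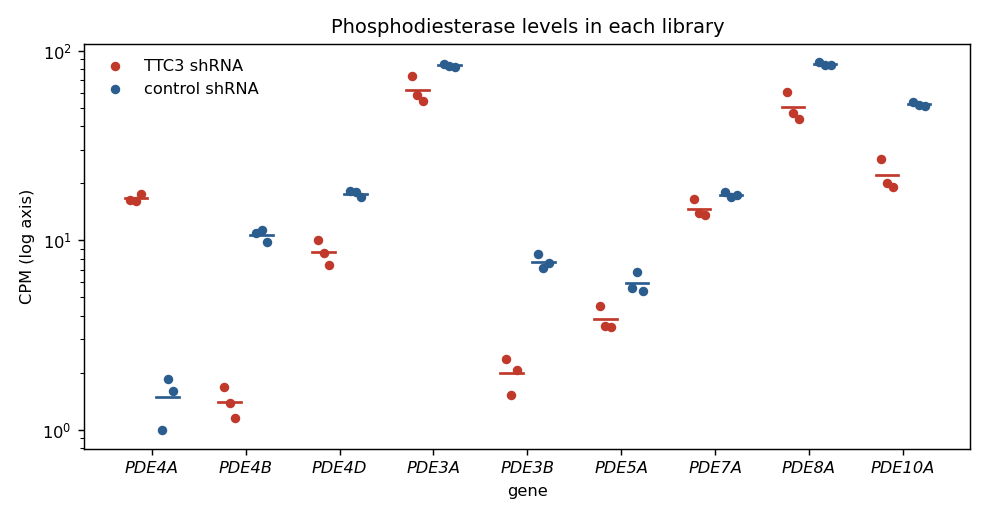
CPM on a log axis for the 9 chosen phosphodiesterases that were tested, with 1 point per library, TTC3 shRNA in red at left of control shRNA in blue, and a line at each group's mean (3 libraries each). PDE4A is the gene with red points above blue, at 16.1 to 17.5 CPM in TTC3 shRNA and 0.992 to 1.86 CPM in control libraries, and in the other 8 the red points lie below.

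The PDE3 enzymes hydrolyse both nucleotides and are inhibited by cGMP, and their genes were unequally lower in TTC3 shRNA cells. PDE3B (ENSG00000152270.9, chr11:14643723-14872044), known for its role in insulin action on fat cells, had 2.38, 1.525 and 2.08 CPM in TTC3 shRNA libraries against 8.46, 7.12 and 7.57 CPM in controls. Means were 1.99 ± 0.431 CPM in TTC3 shRNA cells and 7.72 ± 0.685 CPM in controls, and the groups were far apart (log2 fold change -1.95 ± 0.18, 25.8% of control). PDE3A (ENSG00000172572.7, chr12:20369245-20684381), the heart and platelet form, had 73.3, 58.4 and 54.5 CPM in TTC3 shRNA libraries against 85.5, 83.5 and 82.3 CPM in controls. The groups were separate, but TTC3 shRNA replicate 1 sat closer to the controls than to its own group's replicate 3, and the log2 fold change was -0.43 ± 0.11.

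PDE10A, PDE8A, PDE7A and PDE5A were also lower. PDE10A (ENSG00000112541.19, chr6:165327287-165988078), a dual-specificity enzyme best known from the striatum, had 26.9, 20.0 and 19.1 CPM in TTC3 shRNA libraries against 53.9, 51.9 and 50.9 CPM in controls. The highest TTC3 shRNA library was well below the lowest control (means 22.0 ± 4.26 CPM in TTC3 shRNA cells and 52.2 ± 1.55 CPM in controls, log2 fold change -1.25 ± 0.13). PDE8A (ENSG00000073417.15, chr15:84980440-85139145), a high-affinity cAMP enzyme, had 61.0, 46.7 and 43.7 CPM in TTC3 shRNA libraries against 86.9, 84.0 and 84.2 CPM in controls. Its means of 50.5 ± 9.21 CPM in TTC3 shRNA cells and 85.0 ± 1.61 CPM in controls gave a log2 fold change of -0.75 ± 0.12, with the controls tightly together and the TTC3 shRNA libraries spread out.

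The cGMP-specific PDE5A (ENSG00000138735.16, chr4:119494395-119628991), the target of sildenafil, had 4.52, 3.52 and 3.47 CPM in TTC3 shRNA libraries against 5.59, 6.78 and 5.42 CPM in controls. Its groups were separated by less than the range of the controls, and the log2 fold change was -0.63 ± 0.15. PDE7A (ENSG00000205268.11, chr8:65717510-65842322), a rolipram-resistant cAMP enzyme, had 16.4, 13.9 and 13.6 CPM in TTC3 shRNA libraries against 17.9, 17.0 and 17.4 CPM in controls. It differed least of the 9 (log2 fold change -0.25 ± 0.09) and did not pass the threshold of the model, although it did with libraries scaled by totals alone, with the length trend removed and without TTC3 shRNA replicate 1.

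By the model's threshold 8 of the 9 tested genes would be called, 1 higher and 7 lower, where 33.6% of all genes passed. Their median log2 fold change was -0.75, and in all 9 the groups did not overlap, which held for 50.3% of all tested genes. Since the genes were chosen on this contrast, nothing is read from these counts. PDE3A and PDE5A are the least firm of the 8, because leaving out TTC3 shRNA replicate 2 or 3 or control replicate 1 or 2 takes both below the threshold, and control replicate 3 takes PDE3A.

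**Figure D2:**
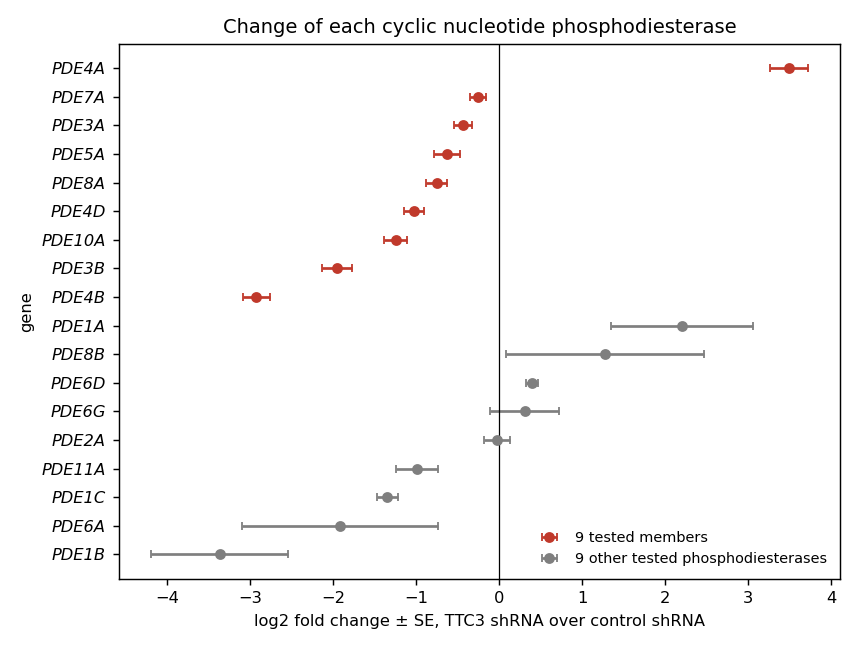
Log2 fold change with SE for the 9 tested phosphodiesterases (red, top) and the 9 other tested phosphodiesterases (grey, bottom), TTC3 shRNA over control shRNA. PDE4A stands alone at the right at 3.49, and the other 8 chosen genes run between -0.25 for PDE7A and -2.92 for PDE4B.

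The TTC3 shRNA libraries were not equally far from the controls. In all 8 genes that were lower, TTC3 shRNA replicate 1 was the library nearest to the controls. The share of all genes with this order was not counted. Replicate 1 also stood apart over the tested genes with enough counts. It differed from replicates 2 and 3 by 42.1 and 54.1 times sampling noise (median chi-square per gene), against 8.54 between replicates 2 and 3. The log2 ratio of replicate 1 to the control mean was -0.48 for PDE8A, against -0.86 and -0.96 in replicates 2 and 3. For PDE10A these ratios were -0.96, -1.38 and -1.45, and for PDE4B they were -2.66, -2.94 and -3.215. PDE4A showed no such step, with ratios of 3.46, 3.44 and 3.57. The coefficient of variation within TTC3 shRNA libraries was 18.3% for PDE8A and 15.9% for PDE3A, against 1.89% and 1.92% within controls, while for PDE4A it was 4.81% within TTC3 shRNA libraries and 29.95% within controls.

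A length trend moved with this spread between libraries. The slope of log2 level on transcript length, relative to the control mean, was -0.02 per doubling of length in TTC3 shRNA replicate 1, -0.17 in replicate 2 and -0.21 in replicate 3. With each library's length trend removed, the log2 fold change was 3.50 for PDE4A, -2.92 for PDE4B, -0.93 for PDE4D, -1.90 for PDE3B, -1.15 for PDE10A and -0.75 for PDE8A. It was -0.35 for PDE3A, -0.55 for PDE5A and -0.29 for PDE7A. None of the 9 changed direction.

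Levels were set side by side per length, as CPM per kilobase of the gene's longest transcript. In TTC3 shRNA cells the order was PDE8A (10.8 ± 1.98), PDE3A (8.19 ± 1.30), PDE7A (3.99 ± 0.423), PDE4A (3.48 ± 0.167), PDE10A (2.54 ± 0.493), PDE4D (1.05 ± 0.160), PDE5A (0.537 ± 0.0823), PDE3B (0.328 ± 0.0710) and PDE4B (0.309 ± 0.0591). PDE8A and PDE3A overlapped there, as did PDE3B and PDE4B, and the other neighbours in the order did not. In control cells it was PDE8A (18.2 ± 0.345), PDE3A (11.1 ± 0.212), PDE10A (6.04 ± 0.179), PDE7A (4.75 ± 0.130), PDE4B (2.35 ± 0.179), PDE4D (2.14 ± 0.0859), PDE3B (1.27 ± 0.113), PDE5A (0.829 ± 0.103) and PDE4A (0.310 ± 0.0928). PDE4B and PDE4D overlapped in controls, and the other neighbours in that order did not. PDE4A thus held place 4 of 10 in TTC3 shRNA cells and place 9 in controls, and PDE4B held place 9 in TTC3 shRNA cells and place 5 in controls. PDE4C came last in both. When transcript estimates were divided by their own lengths, PDE4D stood higher, at 2.66 in TTC3 shRNA cells and 5.43 CPM per kilobase in controls. On that scale PDE4A was at 3.93 in TTC3 shRNA cells and 0.429 in controls, and PDE4B at 0.350 in TTC3 shRNA cells and 2.68 in controls.

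The makeup of the PDE4 subfamily differed between the groups more than its sum. Summed over the 4 genes, PDE4 levels were 5.00, 4.70 and 4.82 CPM per kilobase in TTC3 shRNA libraries against 4.85, 5.04 and 4.52 in controls, so the groups overlapped (means 4.84 ± 0.150 in TTC3 shRNA cells and 4.81 ± 0.261 in controls, a ratio of 1.01). PDE4A made up 68.1, 71.4 and 76.1% of this sum in TTC3 shRNA libraries and 4.28, 7.71 and 7.37% in controls. PDE4B made up 6.38 ± 1.09% in TTC3 shRNA cells and 48.8 ± 1.27% in controls, and PDE4D 21.7 ± 2.88% in TTC3 shRNA cells and 44.7 ± 1.34% in controls. The equal sum, the overlap and the near-equal control shares of PDE4B and PDE4D depend on the scale. PDE4D was divided by 8232 bases, while its leading transcript has 3350. In controls PDE4D was at 17.7 and PDE4B at 10.7 CPM not divided by length. On transcript estimates over their own lengths they were at 5.43 and 2.68 in controls. For CPM not divided by length the sums were 26.0 to 28.0 in TTC3 shRNA libraries and 28.2 to 31.0 in controls, a ratio of 0.896, and for transcript estimates over their own lengths 6.66 to 7.28 in TTC3 shRNA libraries and 7.92 to 8.89 in controls, a ratio of 0.811, so on both scales the TTC3 shRNA libraries lay below all controls. PDE4A held the largest share in TTC3 shRNA cells on those scales also, at 62.3 ± 4.55% and 56.7 ± 4.61%, against 4.97 ± 1.48% and 5.01 ± 0.758% in controls. Over all 10 genes the sum was 31.3 ± 4.45 CPM per kilobase in TTC3 shRNA cells and 47.0 ± 1.01 in controls. Over all 24 listed genes of the phosphodiesterase families it was 57.4 ± 5.20 in TTC3 shRNA cells and 79.1 ± 1.17 in controls. These 24 include the non-catalytic PDE6D, PDE6G and PDE6H, and PDE6D alone held 18.7 in TTC3 shRNA cells and 14.2 in controls.

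**Figure D3:**
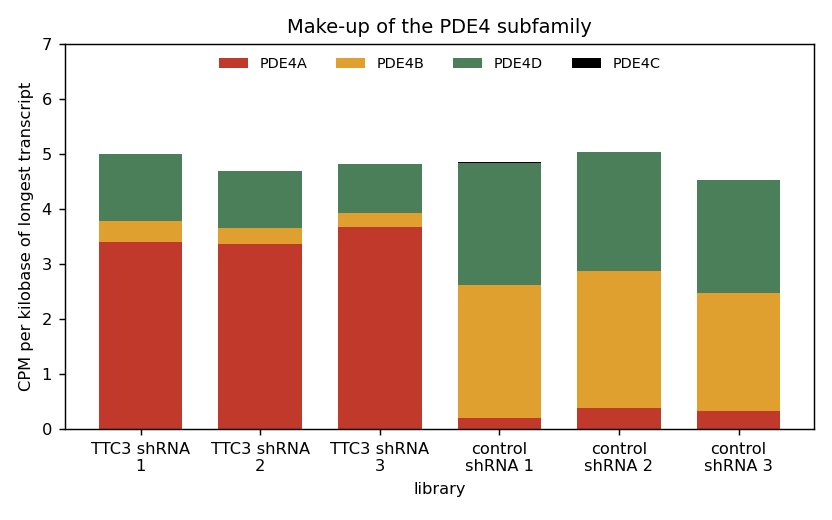
Stacked bars of PDE4A, PDE4B, PDE4D and PDE4C in CPM per kilobase of the longest transcript, with 1 bar per library and the 3 TTC3 shRNA libraries at left. Bar heights on this scale are alike (4.70 to 5.00 in TTC3 shRNA and 4.52 to 5.04 in control libraries), while PDE4A fills most of each TTC3 shRNA bar and PDE4B and PDE4D most of each control bar. On CPM not divided by length and on transcript estimates, the TTC3 shRNA sums lay below all controls.

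PDE4 genes make long and short proteins from different start sites, which differ in the regulatory regions ahead of the catalytic domain. Most PDE4A reads in TTC3 shRNA libraries were assigned to PDE4A-203 (ENST00000380702.7, coding length 886 codons), whose annotated start lies 117 bases from the start site of the PDE4A window shown above. Its estimated counts were 2179, 1690 and 2171 in TTC3 shRNA libraries against 0, 186 and 196 in controls, and it held 84.2% of the TTC3 shRNA group's PDE4A counts and 54.8% of the control group's. Control replicate 1 is thus listed at 0 for PDE4A-203 although the gene had counts there. PDE4A-201 (860 codons) had 202, 401 and 306 counts in TTC3 shRNA libraries against 98, 91 and 42 in controls, so its groups did not overlap either.

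For PDE4B the leading transcript in each group's summed counts was PDE4B-203 (ENST00000371045.9, 564 codons), whose annotated start lies 104 bases from the start site of its window. It had 208, 48 and 165 counts in TTC3 shRNA libraries against 1661, 1699 and 971 in controls, which is 69.1% of the TTC3 shRNA group's and 86.0% of the control group's PDE4B counts. The longer PDE4B-206 (721 codons) had 42, 0 and 0 counts in TTC3 shRNA libraries against 68, 119 and 469 in controls, but did not pass. The other long form, PDE4B-201 (736 codons), was too scarce to be tested and went the other way, with 0, 142 and 0 counts in TTC3 shRNA libraries and 0, 0 and 0 in controls, and it held 74.7% of PDE4B counts in TTC3 shRNA replicate 2. PDE4D-216 (ENST00000507116.6, 745 codons) led PDE4D, with 1400, 1047 and 867 counts in TTC3 shRNA libraries (88.3% of that group's counts) against 2592, 2620 and 2286 in controls (90.1%). Among the other genes a single transcript held all PDE3A and all PDE3B counts (1141 and 1112 codons). Of the PDE10A counts in annotated transcripts, PDE10A-205 (1055 codons) held 87.7% in TTC3 shRNA cells and 93.1% in controls. Annotated transcripts covered as little as 88.0% of the PDE10A gene count in a library, so its share of the gene count was lower. PDE10A-205 summed to 7793 counts against 9542 for the gene in TTC3 shRNA libraries, and to 21944 against 24618 in controls. PDE8A-203 (829 codons) had 8030, 4534 and 5567 counts in TTC3 shRNA libraries against 11862, 10714 and 11629 in controls.

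Of 30 tested transcripts of the 10 genes, PDE4B-203 and PDE3B-201 passed the threshold, both lower, where 3.99% of all 53805 tested transcripts passed in either direction and 2.60% were lower. Nothing is read from that count, which fell to 0 with a replicate block, without TTC3 shRNA replicate 2 or 3 and without control replicate 2 or 3, was 1 (PDE4A-203) without control replicate 1 and was 7 without TTC3 shRNA replicate 1. How reads common to several transcripts were divided is not known, which makes each transcript estimate uncertain.

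**Figure D4:**
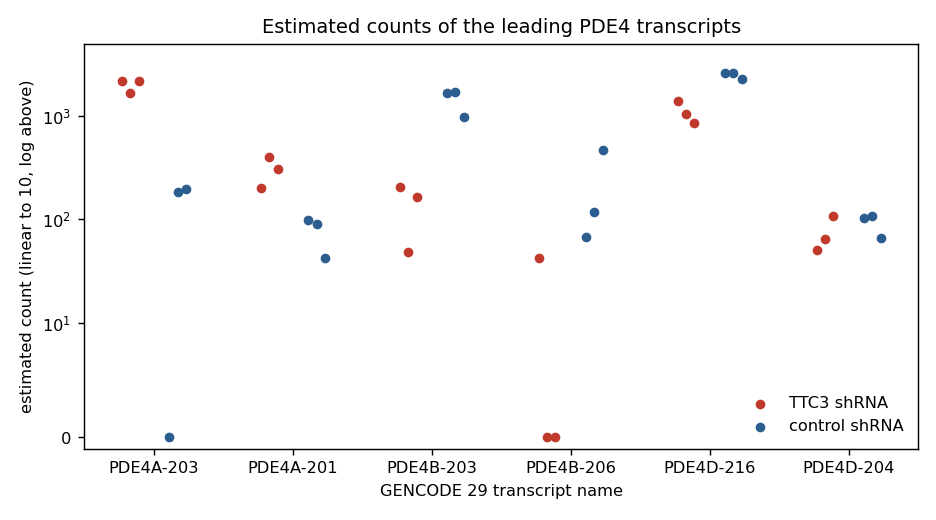
Estimated counts (linear to 10, log above) of PDE4A, PDE4B and PDE4D transcripts, with 1 point per library, TTC3 shRNA in red at left of control shRNA in blue. PDE4A-203 and PDE4A-201 have red above blue, PDE4B-203, PDE4B-206 and PDE4D-216 blue above red, PDE4D-204 overlaps, and control replicate 1 of PDE4A-203 sits at 0.

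The protein-coding genes closest to PDE4A on chromosome 19 were also looked at, 5 tested genes on each side, by distance between starts. Of these 10 neighbours, 6 rose and 4 did not pass, where 15.7% of all genes rose, and their median log2 fold change was 0.43 against -0.02 over all genes. S1PR5, a sphingosine-1-phosphate receptor 96.0 kb away, rose to 3.44 ± 0.796 CPM in TTC3 shRNA cells, against 1.06 ± 0.106 CPM in controls (log2 fold change 1.70 ± 0.20, adjusted p = 0.00125). KEAP1, the adaptor that marks NRF2 for degradation, was at 124 ± 24.8 CPM in TTC3 shRNA cells and 83.1 ± 2.23 CPM in controls (0.58 ± 0.14, adjusted p = 0.0193), and the autophagy protease ATG4D at 31.2 ± 6.25 CPM in TTC3 shRNA cells and 21.3 ± 0.722 CPM in controls (0.55 ± 0.14, adjusted p = 0.0243). The fourth neighbour named by the rule, ENSG00000267303, was scarce, at 0.0977 ± 0.0116 CPM in TTC3 shRNA cells and 0.0167 ± 0.00920 CPM in controls (log2 fold change 2.47 ± 0.59, adjusted p = 0.0176). This count of 6 rests on the libraries kept: it was 1 without TTC3 shRNA replicate 2 or 3 or control replicate 1 or 3, 2 without control replicate 2 and 8 without TTC3 shRNA replicate 1, and S1PR5 kept its call in every alternative.

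The 5 genes with a pattern nearest to PDE4A over the 6 libraries were COL5A1, ESM1, VGF, JAM3 and SDC1, at distances of 1.07, 1.07, 1.25, 1.32 and 1.34 on centred log2 CPM. COL5A1, a fibrillar collagen chain, averaged 10.0 ± 1.65 CPM in TTC3 shRNA cells and 1.42 ± 0.144 CPM in controls. ESM1, a secreted proteoglycan, averaged 21.6 ± 0.639 CPM in TTC3 shRNA cells and 3.02 ± 0.0803 CPM in controls, and the junctional adhesion molecule JAM3 9.98 ± 0.487 CPM in TTC3 shRNA cells and 0.481 ± 0.0495 CPM in controls. The likeness reflects the difference between the groups, on which PDE4A was chosen.

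Of 14 other genes of the phosphodiesterase families, which include the non-catalytic PDE6D, PDE6G and PDE6H, 9 were tested. Of these 3 fell, 1 rose and 5 did not pass, where 17.8% of all genes fell and 15.7% rose. Their median log2 fold change was -0.03. PDE1C, a calcium and calmodulin-activated enzyme and the most abundant of them in controls, fell to 59.7 ± 11.2 CPM in TTC3 shRNA cells, against 152 ± 3.09 CPM in controls (log2 fold change -1.35 ± 0.13, adjusted p = 0.000464). Its counts were 10953, 7329 and 7610 in TTC3 shRNA libraries and 24672, 24766 and 22162 in controls, with replicate 1 again nearest to the controls. Per kilobase PDE1C stood between PDE8A and PDE6D in controls, at 17.2 CPM. PDE6D, a carrier of prenylated proteins outside the retina, rose to 22.0 ± 0.449 CPM in TTC3 shRNA cells, against 16.7 ± 0.890 CPM in controls (0.40 ± 0.07, adjusted p = 0.00622), but not when the length trend was removed.

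The other phosphodiesterases that passed were rare. PDE1B had 3, 0 and 3 counts in TTC3 shRNA libraries against 39, 16 and 16 in controls (log2 fold change -3.36 ± 0.82, adjusted p = 0.0196), and lost its call without control replicate 1 or 3. The dual-specificity PDE11A was at 0.343 ± 0.0684 CPM in TTC3 shRNA cells and 0.682 ± 0.141 CPM in controls (-0.99 ± 0.25, adjusted p = 0.0226), and lost it with a replicate block and without TTC3 shRNA replicate 2 or 3 or control replicate 2 or 3. PDE1A had 19, 14 and 28 counts in TTC3 shRNA libraries against 6, 0 and 8 in controls and did not pass (2.20 ± 0.85, adjusted p = 0.0865). PDE8B, PDE6A and PDE6G did not pass either (adjusted p = 0.449, 0.251 and 0.601), and the cGMP-stimulated PDE2A was at 1.56 ± 0.240 CPM in TTC3 shRNA cells and 1.58 ± 0.0477 CPM in controls (-0.03 ± 0.16, adjusted p = 0.915).

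Genes that make cAMP changed in both directions, as did genes at large, of which 15.7% rose and 17.8% fell. Of 20 adenylyl cyclases, G protein subunits and regulators, 17 were tested, 5 rose, 4 fell and 8 did not pass, with a median log2 fold change of -0.22. The calmodulin-stimulated cyclase ADCY1 rose, with 31.3, 34.2 and 35.0 CPM in TTC3 shRNA libraries against 20.6, 21.4 and 21.5 CPM in controls (0.66 ± 0.07, adjusted p = 0.000706). RGS2, a GTPase activator that dampens G protein signals, fell to 34.4 ± 3.63 CPM in TTC3 shRNA cells, against 91.7 ± 0.975 CPM in controls (-1.41 ± 0.09, adjusted p = 6.33e-05). Inhibitory subunits went both ways. GNAI1 and GNAZ fell less than RGS2 (-0.65 ± 0.08 and -0.52 ± 0.07, adjusted p = 0.00138 and 0.00230). GNAI2, the most abundant of them, rose to 430 ± 31.2 CPM in TTC3 shRNA cells, against 311 ± 4.85 CPM in controls (0.47 ± 0.07, adjusted p = 0.00335), and GNAI3 did not pass.

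Among Gs-coupled receptors the changes were larger. Of 33 receptors 16 were tested, 4 rose, 5 fell and 7 did not pass, where 15.7% of all genes rose and 17.8% fell. Their median log2 fold change was -0.17. The proton-sensing receptor GPR65 had 0.0796, 0.117 and 0.0557 CPM in TTC3 shRNA libraries against 49.3, 46.7 and 46.3 CPM in controls (-9.13 ± 0.18, adjusted p = 1.86e-06). GPR4, another proton-sensing receptor, went the opposite way, with 109.4, 107.7 and 109.9 CPM in TTC3 shRNA libraries against 18.3, 21.0 and 21.4 CPM in controls (2.43 ± 0.08, adjusted p = 7.21e-06). PTGER4, a prostaglandin E2 receptor, fell to 10.8 ± 0.755 CPM in TTC3 shRNA cells, against 36.7 ± 0.861 CPM in controls (-1.76 ± 0.08, adjusted p = 1.71e-05). The count of 9 receptors was 5 without control replicate 1 or 2.

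Downstream of cAMP, 15 of 17 effector genes were tested, 4 rose, 3 fell and 8 did not pass. Of all genes 15.7% rose and 17.8% fell. The median log2 fold change of the effector genes was 0.11. PKIB, an inhibitor of protein kinase A, had 17.5, 15.1 and 15.2 CPM in TTC3 shRNA libraries against 70.2, 67.2 and 64.5 CPM in controls (-2.08 ± 0.08, adjusted p = 1.19e-05). The regulatory subunit PRKAR2A rose to 237 ± 20.1 CPM in TTC3 shRNA cells, against 141 ± 2.32 CPM in controls (0.75 ± 0.08, adjusted p = 0.000611). The Popeye-domain gene POPDC2 and RAPGEF4, an EPAC gene, were scarce and fell (-1.30 ± 0.17 and -1.30 ± 0.18, adjusted p = 0.00168 and 0.00202). The other EPAC gene, RAPGEF3, was more abundant than RAPGEF4 and rose. It was at 8.60 ± 1.33 CPM in TTC3 shRNA cells and 5.70 ± 0.389 CPM in controls (0.59 ± 0.14, adjusted p = 0.0166). Without TTC3 shRNA replicate 1 this count of 7 was 12.

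Scaffolds that hold protein kinase A or PDE4 also moved both ways, as genes did at large (15.7% rose and 17.8% fell). Of 26 listed anchors and PDE4 partners 25 were found by symbol and 23 tested, 7 rose, 4 fell and 12 did not pass, with a median log2 fold change of 0.02. AKAP12, a scaffold of receptor complexes, had 287, 324 and 303 CPM in TTC3 shRNA libraries against 706, 682 and 679 CPM in controls (-1.18 ± 0.07, adjusted p = 5.77e-05). AKAP13 fell by 0.81 ± 0.09 on the log2 scale (adjusted p = 0.000835). RACK1, a partner of PDE4D, rose by 0.57 ± 0.09 (adjusted p = 0.00327), as did DISC1, a partner of PDE4 enzymes, by 0.64 ± 0.11 (adjusted p = 0.00621). The count of 11 was 6 without any 1 of the 3 controls and 7 without TTC3 shRNA replicate 2, and with libraries scaled by totals alone the split was 4 higher and 6 lower.

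The CREB list holds CREB factors, their coactivators and regulating kinases, and genes known as CREB targets. Of 29 listed genes 26 were tested, 2 rose, 15 fell and 9 did not pass, where 15.7% of all genes rose and 17.8% fell, and the median log2 fold change was -0.59 against -0.02 over all genes. Most of the genes that fell were targets: among CREB1, CREM, ATF1, CRTC1, CRTC2, CRTC3, CREBBP and EP300, CRTC3 fell and the others did not pass. The growth factor BDNF had 2.47, 2.42 and 2.54 CPM in TTC3 shRNA libraries against 7.30, 6.75 and 7.37 CPM in controls (-1.53 ± 0.10, adjusted p = 0.000104). The immediate early gene FOS fell to 0.642 ± 0.0652 CPM in TTC3 shRNA cells, against 2.43 ± 0.262 CPM in controls (-1.92 ± 0.16, adjusted p = 0.000263), and RGS2, which stands in this list too, fell as given above. The secreted neuropeptide precursor VGF rose, at 48.7 ± 17.0 CPM in TTC3 shRNA cells and 6.34 ± 0.161 CPM in controls (2.94 ± 0.26, adjusted p = 0.000352). Many of these genes also answer to other pathways, such as growth factor signalling. CREB1 itself, chosen after its values were seen, was at 47.7 CPM in TTC3 shRNA cells and 47.3 CPM in controls and did not pass (0.01 ± 0.13, adjusted p = 0.953).

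In the cGMP pathway, 15 of 24 genes were tested, 2 rose, 5 fell and 8 did not pass. Of all genes 15.7% rose and 17.8% fell. The median log2 fold change of the cGMP genes was -0.03. NOS1, which makes the nitric oxide that activates guanylyl cyclase, had 4.37, 4.19 and 4.40 CPM in TTC3 shRNA libraries against 18.6, 19.2 and 19.6 CPM in controls (-2.15 ± 0.08, adjusted p = 1.06e-05). The cyclic nucleotide-regulated channels HCN2 and CNGA1 fell (-3.69 ± 0.38 and -1.74 ± 0.28, adjusted p = 0.000678 and 0.00392), both scarce in controls also, at 2.28 and 0.831 CPM. NPR2, a receptor guanylyl cyclase for natriuretic peptides, fell to 4.26 ± 0.372 CPM in TTC3 shRNA cells, against 8.95 ± 0.914 CPM in controls (-1.07 ± 0.12, adjusted p = 0.00101). All genes of the pathway lists given here by the rule for named genes kept their calls in every alternative run.

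**Figure D5:**
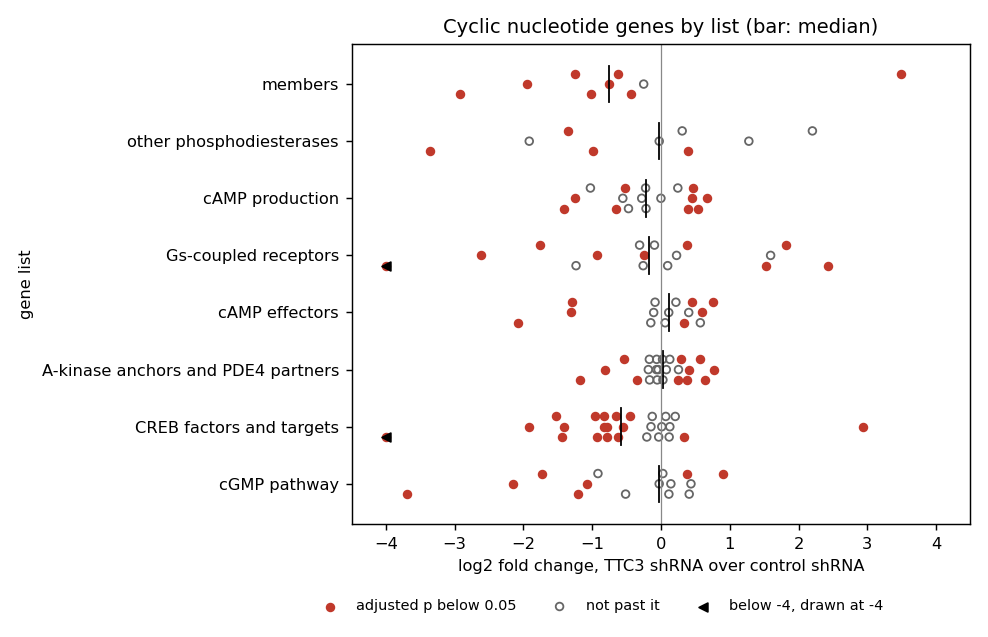
Log2 fold change of each tested gene in 8 lists, TTC3 shRNA over control shRNA, with filled red points past an adjusted p of 0.05, open points not past it, bars at list medians and triangles for genes below -4. The 10 chosen genes ("members", 9 tested) and the CREB list have the lowest medians, -0.75 and -0.59, and PDE4A and VGF are the points farthest right in those lists.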

How the data were processed

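Gene and transcript tables of 3 TTC3 shRNA and 3 control shRNA libraries of PC3 cells were used. The deposited values are estimated counts per gene and per transcript, whole numbers not scaled for library size, so no rounding was needed. Per the submitters' processing notes, the authors used Trim Galore, STAR and StringTie with the hg38 build. No version, setting or annotation release is stated, nor whether strand was used in counting (not given in the sources used here). Per the labels' protocols the libraries were directional and depleted of ribosomal RNA. Genes that overlap, antisense genes and near-identical copies are therefore uncertain.

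Libraries were assigned to groups by their titles. Positions, transcript names, coding lengths and transcript lengths came from GENCODE 29 on GRCh38 (hg38), which held 58207 of 62700 genes and 98286 of 117688 transcripts by identifier, and start-site windows from RefSeq (GRCh38.p14).

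The test was the quasi-likelihood test of edgeR 4.0.16 (R 4.3.3). The default filterByExpr filter, which asks for about 10 counts in any 3 libraries and 15 in all, kept 24325 genes and 53805 transcripts. TMM scaling and a model over the 6 libraries without a block were used, p-values were adjusted over all tested features (Benjamini-Hochberg), and an adjusted p of 0.05 was the threshold. SEs were taken as the absolute log2 fold change over the square root of F. CPM use TMM-scaled library sizes. At 143246356 to 155526861 counts per library, counting error matters for rare genes, and differences among replicates set the precision elsewhere. The floor of 3 counts per group covers counting error only. Replicates of a group differed by 4.12 to 54.1 times sampling noise (median chi-square per gene), so each library was kept as 1 replicate. The scripts were tested on simulated data.

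The 10 genes, the 7 gene lists and the marker lists were chosen with earlier results of these data known. Named genes were the 10, the tested other phosphodiesterases, up to 4 genes per list in order of adjusted p, the 5 genes with at least 5 CPM nearest to PDE4A in centred log2 CPM (prior count 2), up to 4 passing neighbours of PDE4A, and TTC3. CREB1, GNAI2, GNAI3, RAPGEF3 and the genes in the closing observations fall outside this rule. Not every gene that the rule or the marker lists name is reported here.

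Alternatives were DESeq2 size factors in edgeR, library totals alone, DESeq2 1.42.0, no filter, at least 50 counts in 3 libraries, removal of each library's length trend (lowess, span 0.5), a block for the replicate number, omission of each library in turn, and levels from transcript estimates. For the summed PDE4 level, unscaled CPM, transcript estimates and left-out libraries were added after the data were seen.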

Additional observations from a re-analysis of the deposited data

How the results depend on the processing

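None of the 9 tested phosphodiesterases changed direction in the 13 alternatives of the model, and the log2 fold change of PDE4A ranged between 3.27 and 3.69. The number of the 9 past the threshold was 6 to 9 with a library left out and 8 or 9 otherwise. With a library left out, the number of genes past the threshold ranged from 4546 to 13739 (13739 without TTC3 shRNA replicate 1), Gs-coupled receptors from 5 to 9, cAMP effectors from 6 to 12, anchors and PDE4 partners from 6 to 16, neighbours of PDE4A from 1 to 8 and transcripts of the 10 genes from 0 to 7. The cause was not tested. Scaling by library totals moved the median of all genes by -0.13 and gave 2518 higher and 5356 lower genes, and removing the length trend moved it by -0.11 and gave 3018 and 5363, against 3827 and 4338. The split of the cGMP list was 1 higher and 5 lower with totals, and of the other phosphodiesterases 0 and 3 without the length trend. The PDE4 sum ratio of 1.01 was 0.979 to 1.03 with a library left out, 0.896 on CPM not divided by length and 0.811 on transcript estimates. PDE2A, PDE6G and PDE8B, which did not pass, changed sign in at least 1 alternative.

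Deviations of same-numbered libraries correlated at 0.05, 0.04 and -0.01. TTC3 shRNA replicates 1 and 2 correlated best with their own number, and replicate 3 did not. Such small values do not settle whether the replicate numbers pair the libraries. With the replicate block, 6929 genes, 8 of the 9 phosphodiesterases and 0 of their transcripts passed. Low counts limit PDE4C, PDE1B and single transcripts.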

Other observations

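The genes on either side of the other phosphodiesterases were read in the same way as those of PDE4A, after their values were seen. They are the 5 nearest tested protein-coding genes on each side, with starts from 4487 kb before to 3487 kb after the gene's start. Over all tested genes, 17.8% were lower and 15.7% higher. Around PDE8A, 7 of 10 neighbours were lower and the others did not pass, with a median log2 fold change of -0.54, and around PDE4B 6 were lower and 1 higher, with a median of -0.57. PDE10A had 4 lower neighbours (median -0.35) and PDE3A 1 higher (median -0.26), and their other neighbours did not pass. The counts were mixed around PDE5A (3 higher, 2 lower, median 0.03), PDE4D (2 higher, 3 lower, median 0.01), PDE7A (3 higher, 4 lower, median -0.16), PDE4C (2 higher, 3 lower, median -0.11) and PDE3B (1 higher, 2 lower, median -0.12).

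An antisense gene of PDE7B, PDE7B-AS1 (ENSG00000237596.7), chosen after its values were seen, had 7, 12 and 6 counts in TTC3 shRNA libraries against 75, 94 and 85 in controls (log2 fold change -3.19 ± 0.34, edgeR adjusted p = 0.000743). PDE7B itself had 0, 0 and 7 counts in TTC3 shRNA libraries against 7, 9 and 7 in controls and was not tested. Whether counting used the strand is not stated.

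PDE12, a mitochondrial enzyme that shares the name but acts on RNA and not on cyclic nucleotides, did not pass (log2 fold change 0.20 ± 0.07, edgeR adjusted p = 0.0725).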
